A study of Homo sapiens with 6 samples.

Results

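Brca1, Brca2, Palb2 and Abraxas1 were followed as 4 of the 459 genes of a dual-guide knockout screen, with symbols written as the count tables write them. A construct of the screen carries a guide RNA at each of 2 positions, so that 2 genes can be targeted in the same cell. The members were found by splitting each construct's name into its guides and keeping every construct with a guide against any of the 4 genes. This gave 15 of the 1826 targeting guides and 13841 of the 863546 constructs. Brca1 had 3 guides in the tables and each of the other genes had 4, with guides 1 and 2 at position 1 and guides 3 and 4 at position 2. Of these constructs, 442 paired a member with a non-targeting guide, 42 held guides against 2 different members, and 14 held 2 guides against the same member.

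The cells were eHAP iCas9-cl#6, a single clone of a haploid human line with doxycycline-inducible Cas9 and the genotype p53 null, which every group shared. Irradiated cells received 0.6 Gy of X-rays 24 hours after each split, with splits every 3 days, and were collected at day 15 after 10 population doublings. Unirradiated cells were collected at day 14 after 12 doublings, and both arms had doxycycline for the first 7 days. Day 0 cells were collected at the start, with no irradiation. Each group held 2 libraries of guide amplicons from genomic DNA. The irradiated and day 14 groups therefore differed in doublings and in a day of culture as well as in irradiation, and these cannot be told apart.

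The human genes lie, in GRCh38.p14, at chr17:43044295-43170327 (BRCA1), chr13:32315077-32400268 (BRCA2), chr16:23603165-23641310 (PALB2) and chr4:83459517-83485100 (ABRAXAS1). BRCA1 acts early in homologous recombination, the repair of a DNA break by copying a sister chromatid, where with BARD1 it favours resection of the broken ends. PALB2 bridges BRCA1 to BRCA2, and BRCA2 acts after resection and protects stalled replication forks. ABRAXAS1 is the scaffold of the BRCA1-A complex, which binds ubiquitin chains beside breaks and restrains resection rather than promoting it. Cells that lose BRCA1, BRCA2 or PALB2 are known to be sensitive to ionising radiation and to inhibitors of PARP.

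The libraries held 71481191 and 86587125 reads (irradiated), 61962789 and 61185707 (day 14) and 84399152 and 86542435 (day 0). Irradiated replicate 2 and day 14 replicate 1 stood apart, since 49.4% and 54.1% of all constructs had 0 reads there, against 1.93% to 7.62% in the other 4 libraries. The day 0 libraries also differed from each other at position 2, where 264 of 927 guides were more than 0.4 lower (log2) in replicate 1 than in replicate 2, 11 of the 36 non-targeting guides there among them. None of the 8 guides against the members was among those 264. Their differences were 0.089 to 0.26, all above 0, so each of the 8 was higher in day 0 replicate 1. Over all 927 guides at position 2 the median difference was -0.0028, the 75th percentile 0.16 and the 95th 0.25. The 7 guides at position 1 differed by -0.12 to 0.057. What set these libraries apart was not tested.

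**Figure D1:**
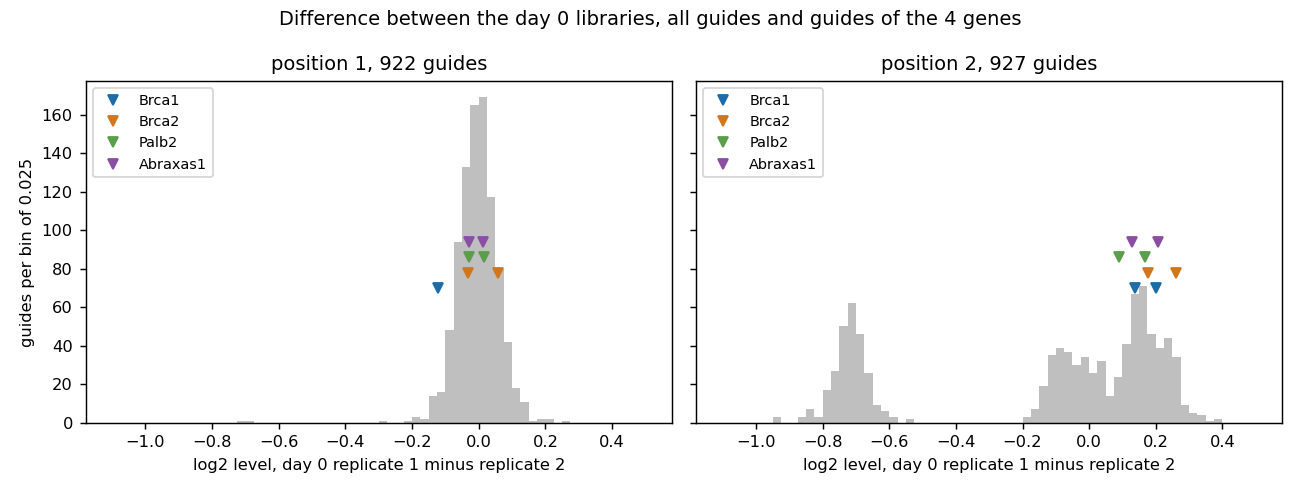
Histograms of the log2 level of each guide in day 0 replicate 1 minus replicate 2 (x axis), for 922 guides at position 1 and 927 at position 2, with the number of guides per bin of 0.025 on the y axis and a triangle for each guide against the 4 genes. At position 2 the guides fell into separate groups, and the 8 triangles lie at 0.089 to 0.26, apart from the 264 guides below -0.4.

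Guide levels are given as CPM, counts scaled to the library's TMM-effective size within the guide's position, summed over all partners, and were compared only between libraries of the same guide. They were tested with edgeR's quasi-likelihood test on the counts of all 6 libraries, adjusted by Benjamini-Hochberg over 1849 guides. The labels do not say that the replicates came from separate cultures, so p-values measure only the spread between these libraries, which may be technical. Across the 15 guides, 0 passed an adjusted p of 0.05 in any comparison, and edgeR called 0% of all guides. At an unadjusted p under 0.05 edgeR gave 83 guides between irradiated and day 14 cells (4.49%), 57 between irradiated and day 0 cells (3.08%) and 79 between day 14 and day 0 cells (4.27%). DESeq2 called 22, 27 and 24 guides in the same order of comparisons, none of them against a member.

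Brca1, which organises the choice of repair pathway, had its guide 2 at 1017 and 1011 CPM in the irradiated libraries, 853 and 928 at day 14 and 929 and 1009.9 at day 0. Both irradiated values lay above all others, the lower only just above day 0 replicate 2, and both day 14 values lay below all others. The log2 difference was 0.19 between irradiated and day 14 cells (95% interval 0.0029 to 0.37, unadjusted p = 0.0475, edgeR adjusted p = 1). Guide 3 was counted at 303 and 331 CPM in the irradiated libraries, 292 and 319 at day 14 and 385 and 335 at day 0, with both day 0 values above the rest and the other groups overlapping. Guide 4 stood at 2244 and 2110.3 in the irradiated libraries, 2115 and 2229 at day 14 and 2441 and 2221 at day 0, and all 3 groups overlapped. The day 14 level minus the day 0 level was -0.12, -0.24 and -0.10 on the log2 scale for guides 2, 3 and 4, each with an interval that held 0. For guide 3 the size rested on which day 0 library was used, at -0.14 without replicate 1 and -0.33 without replicate 2.

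Brca2, which acts after resection in the same route, was represented by guide 1 at 2863 and 3064 CPM in the irradiated libraries, 3237 and 2956 at day 14 and 3047 and 2929 at day 0, and its 3 groups overlapped. Guide 2 gave 465 and 452 in the irradiated libraries, 382 and 428 at day 14 and 424 and 434 at day 0, so that both irradiated values exceeded all the others. Its log2 difference between irradiated and day 14 cells was 0.18 (-0.036 to 0.40). That was the reverse of guide 4, which gave 574 and 534 in the irradiated libraries, 642 and 589 at day 14 and 652 and 577 at day 0 and was lowest in both irradiated libraries, with a log2 difference of -0.15 (-0.39 to 0.084). Guide 3 was at 1023 and 1055 in the irradiated libraries, 945 and 1056 at day 14 and 1155 and 965 at day 0, with all groups overlapping. No direction was shared by the 4 guides of Brca2 in the comparison of day 14 with day 0 cells, where the log2 differences ran from -0.085 (guide 2) to 0.051 (guide 1).

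Palb2, the bridge between BRCA1 and BRCA2, had its guide 3 at 3321 and 3230.4 CPM in the irradiated libraries, 3161 and 3372 at day 14 and 3709.8 and 3487 at day 0, and both day 0 values lay above all the others. The log2 difference was -0.14 between irradiated and day 0 cells (-0.27 to 0.0036, adjusted p = 0.789) and -0.14 between day 14 and day 0 cells (-0.28 to -0.0005, unadjusted p = 0.0494, adjusted p = 0.646 by edgeR). Guide 1 was at 292 and 263 in the irradiated libraries, 294 and 302 at day 14 and 305 and 302 at day 0, lowest in both irradiated libraries and nearly level between day 14 and day 0. Guide 2 was at 572 and 543 in the irradiated libraries, 549.8 and 557 at day 14 and 575 and 586 at day 0, with both day 0 values again above the rest by a small margin. Guide 4 gave 505 and 549 in the irradiated libraries, 643 and 491 at day 14 and 576 and 513 at day 0, and its day 14 libraries were the most divergent pair among all 15 guides. Coverage differed widely between these guides: in day 14 replicate 1, 17.6% of the constructs of guide 3 and 82.1% of those of guide 1 had 0 reads.

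Abraxas1, the scaffold of the BRCA1-A complex, had guide 1 at 765 and 800.4 CPM in the irradiated libraries, 648 and 712 at day 14 and 773 and 766 at day 0. Both day 14 values lay below all the others, and irradiated and day 0 values overlapped. The log2 difference between irradiated and day 14 cells was 0.20 (0.023 to 0.38, unadjusted p = 0.0331, edgeR adjusted p = 1). Guide 2, at 474 and 468 in the irradiated libraries, 443 and 447 at day 14 and 472 and 481 at day 0, was also lowest at day 14, by a smaller margin. The guides at position 2 ran the other way. Guide 3 was at 1074 and 1073 in the irradiated libraries, 1122 and 1129 at day 14 and 1186 and 1086 at day 0, lowest in both irradiated libraries, and guide 4 at 1096 and 1226 in the irradiated libraries, 1413 and 1163 at day 14 and 1437 and 1245 at day 0, where irradiated values lay below both day 0 values but overlapped with day 14. The difference between irradiated and day 14 cells was -0.069 for guide 3 and -0.15 for guide 4.

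Counted over the set, 6 of the 15 guides were lower in irradiated than in day 14 cells, 12 were lower in irradiated than in day 0 cells, and 12 were lower at day 14 than at day 0. Both comparisons with day 0 use the same day 0 libraries. Scaled by non-targeting constructs in place of TMM, the counts of lower guides were 11, 11 and 9 of 15, and the median over all 1849 guides was itself -0.075, 0.0015 and 0.070. Below that median lay 6, 12 and 13 of the 15 guides, against 6, 12 and 12 under TMM. Without irradiated replicate 2 and day 14 replicate 1, 8, 13 and 15 of the 15 guides were lower under TMM. Groups did not overlap for 3 guides that were lower and 4 that were higher in irradiated than in day 14 cells, where 15.8% and 15.1% of all guides did so. Against day 0, irradiated cells had 7 guides apart and lower and 2 apart and higher (18.3% and 18.2% of all guides), and day 14 cells had 7 apart and lower and 0 apart and higher (21.5% and 19.5%). At position 2, where all 8 guides were higher in day 0 replicate 1, all 8 were lower in irradiated than in day 0 cells and 6 were lower at day 14. Non-targeting guides spanned -0.41 to 0.41 between day 14 and day 0 at position 2 and -0.18 to 0.16 at position 1, and the members' guides spanned -0.24 to 0.059 and -0.18 to 0.051 there.

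**Figure D2:**
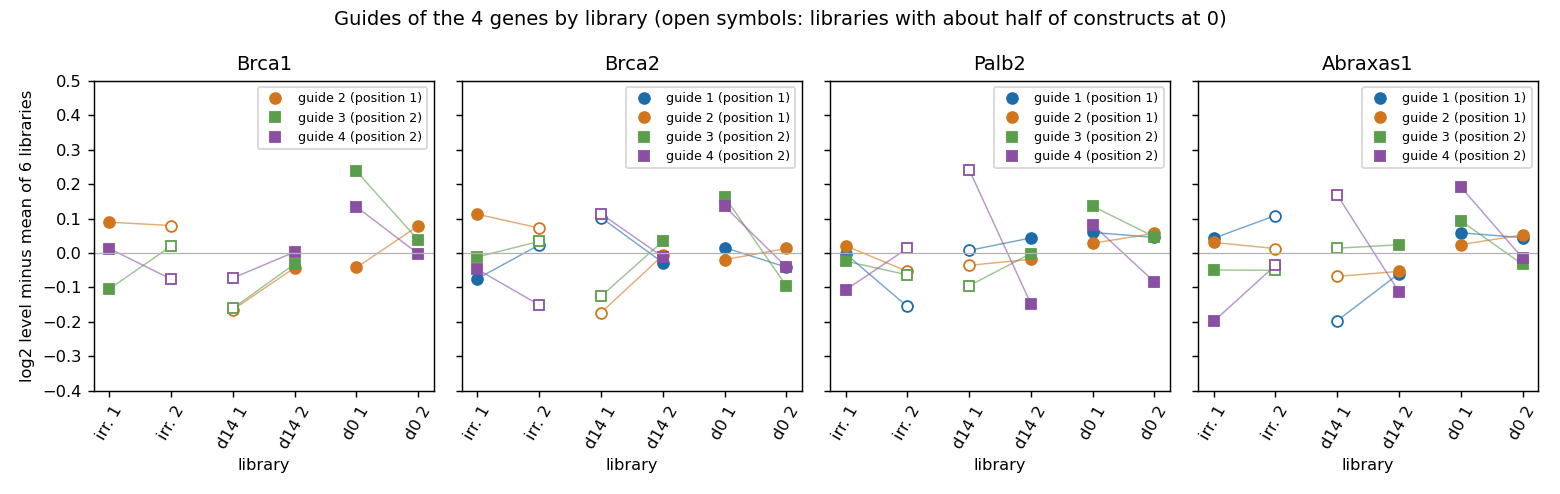
Log2 level of each guide minus its mean over the 6 libraries (y axis) in the irradiated (irr.), day 14 (d14) and day 0 (d0) libraries (x axis), with circles for position 1, squares for position 2, and lines joining replicates. Open symbols mark the libraries with 49.4% and 54.1% of constructs at 0, and the spread of a gene's guides within a library was about as wide as the differences between groups.

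For each gene, reads were then summed over every construct in which it was paired with another gene or with a non-targeting guide. Brca1 stood at 1835 and 1764 CPM in the irradiated libraries, 1661 and 1781 at day 14 and 1957 and 1823 at day 0, scaled to the TMM-effective library size. Brca2 stood at 2539.9 and 2621 in the irradiated libraries, 2663 and 2585 at day 14 and 2689 and 2521 at day 0. Palb2 was at 2415 and 2339 in the irradiated libraries, 2365 and 2419.7 at day 14 and 2705 and 2498 at day 0. Palb2 was lower in all 4 later libraries than in either day 0 library, and Brca1 was lower in both day 14 libraries. The remaining gene, Abraxas1, was at 1756 and 1824 in the irradiated libraries, 1846 and 1769 at day 14 and 2009 and 1832 at day 0, lower in irradiated than in day 0 cells, with day 14 and day 0 overlapping. Brca2 overlapped throughout.

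None of the 4 genes passed edgeR's adjusted threshold over 459 genes in any comparison, and edgeR called 0% of all genes. At an unadjusted p under 0.05 edgeR gave 12 genes between irradiated and day 14 cells (2.61%), 18 between irradiated and day 0 cells (3.92%) and 18 between day 14 and day 0 cells (3.92%), and DESeq2 called 1, 2 and 2 genes. Palb2 had the lowest value of the 4 in irradiated against day 0 cells, a log2 difference of -0.13 (-0.26 to -0.0024, unadjusted p = 0.047, adjusted p = 0.625). Between day 14 and day 0 cells the differences were -0.14 for Brca1 (-0.29 to 0.017), -0.12 for Palb2 (-0.25 to 0.0073), -0.087 for Abraxas1 (-0.24 to 0.065) and 0.011 for Brca2 (-0.11 to 0.13). Between irradiated and day 14 cells they were 0.064, -0.0096, -0.014 and -0.024 for the same genes in that order, with every interval inside -0.17 to 0.22, and that of Brca1 was -0.011 when scaled by non-targeting constructs. Leaving out the 2 libraries with many empty constructs, 3, 4 and 4 of the 4 genes were lower in irradiated against day 14, irradiated against day 0 and day 14 against day 0 cells, against 3, 4 and 3 with all 6. Groups apart and lower numbered 2 of 4 genes in irradiated and 2 of 4 in day 14 cells against day 0 (18.3% and 20.3% of all genes), and groups apart and higher 0 of 4 in both (20.5% and 20%). Between irradiated and day 14 cells 0 of 4 genes were apart in either direction (17.2% of all genes lower and 17% higher).

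The comparisons with day 0 turned on which day 0 library was kept. Each such fit left 1 day 0 library. Without day 0 replicate 2, Palb2 was at -0.19 in irradiated and -0.18 in day 14 cells against day 0. Abraxas1 was at -0.17 and -0.15, and Brca1 at -0.19 at day 14. Without day 0 replicate 1 the same values were -0.072 and -0.060 for Palb2, -0.034 and -0.017 for Abraxas1 and -0.081 for Brca1. Day 0 replicate 1 is the library in which the position 2 guides of these genes, and many others at that position, stood higher.

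Constructs that pair a member with a non-targeting guide target that gene alone. They were scaled to reads per 1000 reads of the constructs that held 2 non-targeting guides, of which each library had 33836 to 54183 reads. Brca1, with 84 such constructs, was at 121 and 145 in the irradiated libraries, 135 and 125 at day 14 and 151 and 134 at day 0. Brca2 (121 constructs) was at 217 and 234 in the irradiated libraries, 301 and 216 at day 14 and 228 and 202 at day 0. Groups overlapped for both, and the highest value of Brca2 came from day 14 replicate 1, without which its difference between day 14 and day 0 cells was 0.0051 in place of 0.26. Palb2 (116 constructs) was at 165 and 108 in the irradiated libraries, 148 and 166 at day 14 and 208 and 166 at day 0, lower in both irradiated and both day 14 libraries than at day 0, although by less than 1 read per 1000 for the closest pair. Abraxas1 (121 constructs) was at 108 and 109.5 in the irradiated libraries, 123 and 125 at day 14 and 159.5 and 124 at day 0, lowest in both irradiated libraries.

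In this single-knockout reading edgeR called 0 of the 4 genes and 0% of 459 genes in every comparison, with 13, 12 and 18 genes at an unadjusted p under 0.05 (2.83%, 2.61% and 3.92%) between irradiated and day 14, irradiated and day 0, and day 14 and day 0 cells, while DESeq2 called 0 in each. Palb2 had a log2 difference of -0.45 between irradiated and day 0 cells (-0.89 to -0.016, unadjusted p = 0.0431, adjusted p = 0.974). Its value was -0.18 without irradiated replicate 2 and -0.79 without irradiated replicate 1. Abraxas1 had -0.38 (-0.82 to 0.055), and without either irradiated library it was -0.37 or -0.39. Leaving out day 0 replicate 1 gave -0.28 for Palb2 and -0.19 for Abraxas1, and leaving out day 0 replicate 2 gave -0.61 and -0.55. Brca1 and Brca2 had -0.095 (-0.52 to 0.33) and 0.068 (-0.30 to 0.44). Groups apart and lower numbered 2 of 4 genes in irradiated against day 0 cells (19.6% of all genes), 1 in day 14 against day 0 cells (12.2%) and 1 in irradiated against day 14 cells (17%), and groups apart and higher 0 in each (14.8%, 18.3% and 8.06%).

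**Figure D3:**
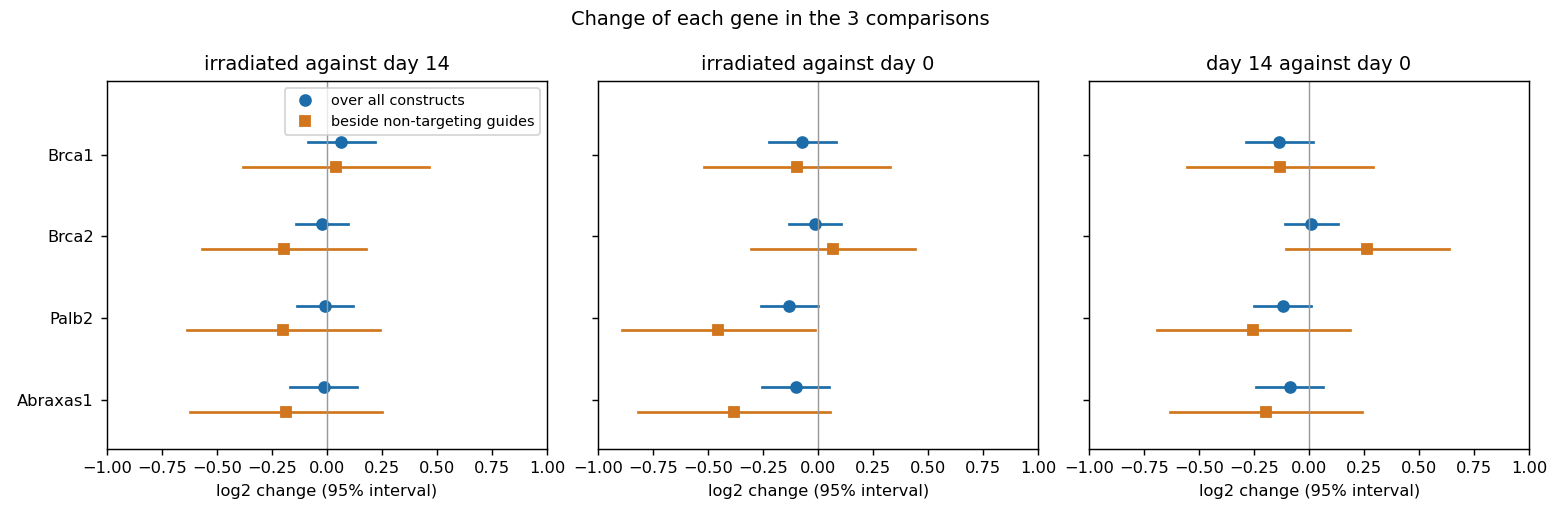
Log2 change (x axis, with 95% intervals as lines) of each gene (rows) in the 3 comparisons, over all constructs (blue circles) and beside non-targeting guides only (orange squares). The lowest values are those of Palb2 and Abraxas1 beside non-targeting guides in irradiated against day 0 cells, at -0.45 and -0.38, and intervals were wider there than over all constructs.

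Constructs with both guides against the same gene were few, 2 for Brca1 and 4 for each other member, and were examined in a fit added after the data were seen, in CPM of the TMM-effective size of such constructs. Brca2 was at 2216 and 2440.4 in the irradiated libraries, 1666 and 2109.7 at day 14 and 3708 and 2887 at day 0, and Palb2 at 1034 and 1452 in the irradiated libraries, 592 and 742 at day 14 and 1717 and 1382 at day 0. Both were lower in each day 14 library than in each day 0 library, by a log2 difference of -0.80 (-1.96 to 0.35) for Brca2 and -1.22 (-3.34 to 0.91) for Palb2. Without the 2 libraries with many empty constructs these were -0.66 and -1.08. The single constructs did not all run one way. The construct of Brca2 guides 1 and 3 carried 212 and 123 reads in irradiated, 0 and 190 at day 14, and 412 and 369 at day 0. That of guides 2 and 3 carried 8 and 287 in irradiated, 159 and 32 at day 14, and 26 and 19 at day 0.

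Brca1 was at 1450.4 and 637 in the irradiated libraries, 8.33 and 1406 at day 14 and 1447 and 1622 at day 0, and its lowest value, in day 14 replicate 1, came from 1 read over both constructs. Its difference between day 14 and day 0 cells was -1.12 (-5.52 to 3.29), and -0.15 without the 2 libraries with many empty constructs. With Brca1, 3 of the 4 genes were apart and lower and 0 apart and higher at day 14 against day 0 (17.9% and 13.6% of 457 genes), 1 and 0 in irradiated against day 0 cells (17.5% and 15.5%), and 0 and 2 in irradiated against day 14 cells (8.32% and 8.75%). Abraxas1 was at 987 and 1250.0 in the irradiated libraries, 1075 and 1383 at day 14 and 1352 and 1189.9 at day 0, with a difference of -0.048 (-2.05 to 1.95). Between irradiated and day 0 cells the 4 differences were -0.56 (Brca1), -0.50 (Brca2), -0.32 (Palb2) and -0.18 (Abraxas1). EdgeR called 0 of the 4 genes and 0% of 457 genes, with 2, 3 and 2 genes at an unadjusted p under 0.05 (0.438%, 0.656% and 0.438%) between irradiated and day 14, irradiated and day 0, and day 14 and day 0 cells, and DESeq2 called 0 in each.

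Double knockouts among the 4 genes were set against an additive expectation, the sum of both genes' median effects on log2 CPM, and their values are log2 observed minus expected. BRCA1, PALB2 and BRCA2 act in sequence, so the pair of Brca1 and Palb2 combines successive steps of the same repair route. Its 6 constructs carried 522 and 1112 reads in the irradiated libraries, 247 and 282 at day 14 and 506 and 462 at day 0, and stood at -0.18 and 0.93 in the irradiated libraries, -0.57 and -0.82 at day 14 and -0.83 and -0.69 at day 0 relative to expectation. Both irradiated values lay above all the others, and 1 construct, Brca1 guide 2 with Palb2 guide 3, gave 1065 of the 1112 reads in irradiated replicate 2. The interaction was 1.18 between irradiated and day 14 cells (-0.095 to 2.45) and 1.24 between irradiated and day 0 cells (-0.032 to 2.51, unadjusted p = 0.0545, edgeR adjusted p = 1). Without irradiated replicate 2 the value against day 0 was 0.58.

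Brca2 with Palb2, over 8 constructs, carried 841 and 1360 reads in the irradiated libraries, 322 and 656 at day 14 and 1386 and 1246 at day 0 and stood at 0.065 and 0.55 in the irradiated libraries, -1.05 and -0.12 at day 14 and 0.17 and 0.29 at day 0. The day 14 values were the lowest, with an interaction of -0.75 against day 0 (-1.78 to 0.28) and 0.84 for irradiated against day 14 cells (-0.19 to 1.88), which were -0.35 and 0.18 without the 2 libraries with many empty constructs. Brca1 with Brca2 stood at 0.29 and 0.13 in the irradiated libraries, 0.015 and 0.38 at day 14 and 0.55 and 0.62 at day 0, highest in both day 0 libraries, with -0.38 for irradiated and -0.38 for day 14 cells against day 0 (intervals -1.22 to 0.46 and -1.22 to 0.46), and -0.30 and -0.20 without those libraries.

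The Abraxas1 pairs join the BRCA1-A scaffold to each of the recombination factors. Abraxas1 with Brca1 stood at -0.77 and -1.73 in the irradiated libraries, -2.40 and -0.50 at day 14 and 0.16 and -0.49 at day 0, where day 14 replicate 1 held reads in 1 of 6 constructs. Its interaction was -1.06 in irradiated and -1.05 in day 14 cells against day 0, with intervals of -3.21 to 1.09 and -3.20 to 1.10. Without the 2 libraries with many empty constructs it was -0.65 and -0.39. The values for Abraxas1 with Palb2 were 0.065 and -1.43 in the irradiated libraries, -0.78 and -0.40 at day 14 and -0.22 and -0.20 at day 0, and those for Abraxas1 with Brca2 were 0.018 and -0.16 in the irradiated libraries, 0.40 and 0.18 at day 14 and 0.24 and 0.066 at day 0. Between day 14 and day 0 cells the interval was -1.82 to 1.06 for Abraxas1 with Palb2 and -0.74 to 1.01 for Abraxas1 with Brca2, and both held 0.

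**Figure D4:**
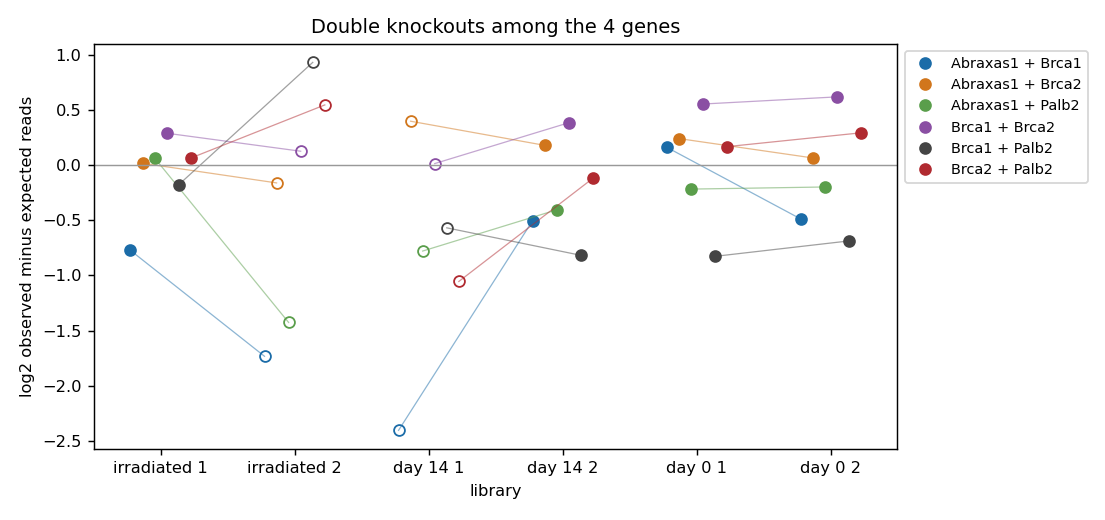
Log2 observed minus expected reads (y axis) of the 6 double knockouts among the 4 genes in each library (x axis), with lines joining replicates and open symbols for the libraries with 49.4% and 54.1% of constructs at 0. The widest gap between replicates was that of Abraxas1 with Brca1 at day 14, at -2.40 and -0.50. Every irradiated and day 14 pair of replicates includes an open symbol, whatever its gap.

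EdgeR called 0 of the 6 member pairs and 0% of 105111 gene pairs in each comparison, with 874, 372 and 443 pairs at an unadjusted p under 0.05 (0.832%, 0.354% and 0.421%) between irradiated and day 14, irradiated and day 0, and day 14 and day 0 cells. Limma-trend on the same residuals called 0 in each, with 1982, 428 and 335 pairs at an unadjusted p under 0.05. The 95% interval of a pair reached a median of 1.34 on either side (log2) in all 3 comparisons, and 0.60, 0.52 and 0.52 without the 2 libraries with many empty constructs, where edgeR called 215, 1261 and 167 pairs and 0 of the 6 member pairs.

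Partners known from the literature on these genes were looked up as 22 listed pairs, all of them measured. PARP1 marks single-strand breaks, POLQ joins ends by alternative end joining, RAD52 anneals single strands, FEN1 removes flaps, and loss of each is known to harm cells that lack BRCA genes in some settings. On all 6 libraries, 0 of the 22 pairs were called by edgeR and 0 had an unadjusted p under 0.05 in any comparison. Negative interactions numbered 11 of 22 in irradiated against day 14, 11 in irradiated against day 0 and 10 in day 14 against day 0 cells, with medians of -0.022, 0.026 and 0.045. With the 2 libraries with many empty constructs left out, the irradiated and day 14 groups each held 1 library. Negative interactions then numbered 14, 12 and 10, with medians of -0.076, -0.0013 and 0.021. Brca1 with Parp1 stood at 0.16 and -0.41 in the irradiated libraries, -0.74 and 0.18 at day 14 and -0.0019 and 0.24 at day 0, with -0.22 in irradiated and -0.34 in day 14 cells against day 0 (-1.50 to 0.82). Brca2 with Parp1 gave 0.23 and 0.22, and Palb2 with Parp1 gave 0.51 and 0.24. Leaving out the 2 libraries, the irradiated and day 14 values were 0.041 and 0.052 for Brca1, -0.44 and -0.25 for Brca2, and 0.17 and 0.24 for Palb2. The interval held 0 for all 3 Parp1 pairs in both arms. The extremes of the list at day 14 were Brca1 with the ubiquitin ligase Rnf168, at 1.53 (-0.30 to 3.36), and Brca2 with Rad52, at -1.14 (-3.61 to 1.33). In both, day 14 replicate 1 was the outlying library, at 2.54 and -3.62 relative to expectation, against 0.35 and -0.37 in day 14 replicate 2, and without the 2 libraries the interactions were 0.048 and -0.28.

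Loss of the end-protection factors 53BP1 and shieldin is known to relieve some defects of cells without BRCA1. Brca1 with Trp53bp1 stood at -0.18 and -0.77 in the irradiated libraries, -0.055 and 0.12 at day 14 and -0.06 and -0.15 at day 0, with -0.34 in irradiated and 0.14 in day 14 cells against day 0. Its irradiated values were the lowest, and the day 14 values lay above day 0 by a narrow margin. Brca1 with Rif1, an effector of 53BP1, gave -0.28 and 0.0028, and Brca1 with Shld2, a shieldin subunit, gave -0.78 and -0.059. Brca1 with Mad2l2, the shieldin subunit REV7, ran the other way, at 0.40 and -0.39. Without the 2 libraries with many empty constructs the irradiated values were -0.074, -0.27, -0.62 and 0.24 in the same order. Within the BRCA1-A complex, Abraxas1 with the ubiquitin reader Uimc1 gave 1.15 in irradiated cells (-0.57 to 2.88) and with the deubiquitinase Brcc3 1.10 (-0.28 to 2.48). In both, irradiated replicate 2 was the high library, at 1.88 and 1.89 relative to expectation, against 0.10 and 0.20 in irradiated replicate 1. The other BRCA1-A pairs were negative there, at -0.25 with Babam1 (-1.33 to 0.83) and -0.54 with Babam2 (-4.20 to 3.13). The interactions without the 2 libraries were -0.0004 with Uimc1, 0.017 with Brcc3, 0.068 with Babam1 and -0.016 with Babam2.

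Each member was paired with 458 partners, and the partner with the smallest p was named for each comparison. Abraxas1 with Kdm2a, a histone demethylase, had the smallest p of all, at 1.41 and 1.11 in the irradiated libraries, 1.36 and 1.36 at day 14 and 0.13 and 0.49 at day 0, with all 4 later libraries above both day 0 libraries. The interaction was 0.94 in irradiated (0.20 to 1.69, adjusted p = 1) and 1.04 in day 14 cells against day 0 (0.29 to 1.79, edgeR adjusted p = 0.969). Without the 2 libraries with many empty constructs, which left 1 library in each of the irradiated and day 14 groups, it was 1.08 and 1.04. Reads of this pair came unevenly from its 8 constructs: Kdm2a guide 2 with Abraxas1 guide 3 carried 860 of 1600 reads in irradiated replicate 1 and 811 of 1204 in day 14 replicate 2, against 166 and 341 at day 0. In irradiated replicate 2 the same construct had 92 reads, and Kdm2a guide 1 with Abraxas1 guide 3 had 920.

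The other partners with the smallest p in a comparison included Rfwd3, a ubiquitin ligase acting on RPA, and Ung for Brca1. For Brca2 they were Fancl, the ligase of the Fanconi anaemia pathway, Wrap53 and Wdr70. For Palb2 they were Rrm2b, a subunit of ribonucleotide reductase, in both comparisons of irradiated cells and Rnf169 at day 14. Abraxas1 had Ppp4c, a phosphatase subunit, in irradiated against day 14 cells, at -2.07 (-3.81 to -0.32), and at -0.62 without the 2 libraries with many empty constructs. Brca1 with Ung, a uracil glycosylase, stood at 0.50 and 0.33 in the irradiated libraries, 1.81 and 0.25 at day 14 and -0.63 and -0.26 at day 0, above both day 0 values in every later library. Palb2 with Rnf8, the ligase that starts ubiquitin signalling at breaks, stood at 0.15 and 0.22 in the irradiated libraries, 0.19 and -0.73 at day 14 and -0.84 and -0.81 at day 0. Without the 2 libraries with many empty constructs, 1 irradiated library was left. Against day 0 the irradiated values were then 0.93 for Brca1 with Ung, 0.98 for Palb2 with Rnf8 and 0.99 for Palb2 with Shld1. With all 6 libraries these were 0.85 (-0.40 to 2.11), 1.01 (-0.086 to 2.12) and 1.58 (-0.25 to 3.40), and each interval held 0.

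The pathway around the 4 genes was read from 6 lists covering 59 genes, over all constructs, of which 1 list is not described separately. None of the 59 passed edgeR's adjusted threshold, with 2, 1 and 2 of them at an unadjusted p under 0.05 between irradiated and day 14, irradiated and day 0, and day 14 and day 0 cells. Median log2 changes were 0.0057, 0.0040 and -0.0088, beside 0.0028, -0.0031 and 0.0067 over all 459 genes. Over all 459 genes, 238 were higher in irradiated than in day 14 cells, 220 in irradiated than in day 0 cells and 239 at day 14. Of the 5 BRCA1-A genes, which include Abraxas1 itself, 1 was higher in irradiated than in day 14 cells. Against day 0, 2 of these 5 were higher in irradiated and 3 in day 14 cells. The 4 Brca1 partners (Bard1, Brip1, Rbbp8 and Topbp1) had 4 of 4 higher in irradiated than in day 14 cells, 2 of 4 higher in irradiated than in day 0 cells and 0 of 4 higher at day 14. The 12 end-protection genes had 7, 4 and 3 higher in irradiated against day 14, irradiated against day 0 and day 14 against day 0 cells, the 16 genes of PARP, flap and single-strand break repair 11, 9 and 9, and the 5 fork remodelling genes 2, 1 and 2. Topbp1, the activator of the ATR kinase, had 0.090 between irradiated and day 14 cells (unadjusted p = 0.0315, edgeR adjusted p = 0.995). Usp1, a deubiquitinase of the Fanconi anaemia pathway, had 0.17 there and -0.15 at day 14 against day 0, and Primpol, a primase that restarts forks, had -0.15 at day 14.

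The genes whose level over all constructs followed each member most closely across the 6 libraries were named by Pearson correlation among 458 genes, as a description of libraries that share depth and coverage. They were Esco2, a cohesin acetyltransferase, for Brca1 (r = 0.985), Trim28, a transcriptional corepressor, for Brca2 (r = 0.986), Smc1a, a cohesin subunit, for Palb2 (r = 0.989) and Ube2n, a ubiquitin-conjugating enzyme, for Abraxas1 (r = 0.993). At the level of guides, the third closest match of Brca2 guide 3 was a non-targeting guide (r = 0.952).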

How the data were processed

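Amplicons of guide pairs from genomic DNA were sequenced in 6 libraries. The deposited tables hold raw counts of reads per construct, per the file headers. HISAT2 2.1.0 and the build hg38 appear in the submitters' processing notes, without their role. Tables of single libraries matched the combined tables in every construct. Of the columns with per-sample values, 2 matched no sample and were not used. Guide sequences were not used here.

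Counts were summed per guide (mean of at least 2000), per gene over all constructs, per gene beside non-targeting guides (mean of at least 20), and per gene pair (mean of at least 20, with an additive offset on log2 CPM, prior count 2, 25 iterations). Each was tested two-sided with edgeR 4.0.16 (R 4.3.3) on all 6 libraries with group as the only term, and tables were handled with pandas 2.3.3. DESeq2 1.42.0 and limma 3.58.1 were alternatives, as were other scalings and filters, a replicate block and libraries left out. Libraries were scaled by TMM, or by the total of constructs with 2 non-targeting guides for genes beside non-targeting guides. The tests were tried on simulated data. Intervals are 95% and cover the spread between libraries, and PCR reads carry no molecular identifiers.

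The members, the pathway lists and the listed pairs were chosen with earlier results of these data known. Every member and guide is described whether called or not, and other genes are named as the partner or list gene with the smallest p, as listed pairs, or as the closest in level. A few genes chosen this way are left out here. Symbols were matched to RefSeq for positions in GRCh38.p14. Same-numbered replicates correlated in their deviations from group means by -0.58 between irradiated and day 14, 0.11 between irradiated and day 0, and -0.045 between day 14 and day 0 libraries, so the numbers were not taken as pairs.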

Additional observations from a re-analysis of the deposited data

Results flagged for a closer look

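Brca1 guide 2 was the only result among the 15 guides and the sums of the 4 genes in which both irradiated libraries lay above both day 0 libraries and both day 14 libraries lay below them. The gaps were narrow, with irradiated replicate 2 at 1010.6 CPM and day 0 replicate 2 at 1009.9. Day 14 replicate 2 was at 928.3 and day 0 replicate 1 at 928.8. This pattern and its reverse were looked for only among the members, so the share of all guides with it is not known. The direct test of irradiated against day 14 cells gave a log2 difference of 0.19 (0.0029 to 0.37), with an unadjusted p of 0.0475 and an edgeR adjusted p of 1 over 1849 guides. The difference therefore did not pass the correction. Guides 3 and 4 of Brca1 gave 0.054 and 0.0034 in the same comparison.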

How the results depend on the processing

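No member's value changed sign while called. Members, and the pairs with a member that were followed, passed the adjusted threshold only in fits that left 1 library in a group. These were genes over all constructs without day 0 replicate 2, and pairs without the 2 libraries with many empty constructs. Over all constructs, DESeq2 called 1, 2 and 2 genes (irradiated against day 14, irradiated against day 0, day 14 against day 0), and leaving out each replicate gave 0 to 1, 0 to 154 and 0 to 164, the highest without day 0 replicate 2. For guides DESeq2 called 22, 27 and 24, leaving out each replicate gave 0 to 11, 0 to 311 and 0 to 313, scaling by non-targeting constructs gave 1, 2 and 0, and no minimum on the mean count gave 1 between irradiated and day 14 cells. The replicate block called 1 guide and 1 gene pair in each comparison of irradiated cells, none of them a member, and changed no other call. A crossed pairing matched irradiated replicate 1 with day 14 replicate 2, and irradiated replicate 2 with day 14 replicate 1. Same-numbered replicates of these groups correlated by -0.58 in their deviations, so opposite-numbered ones deviated alike. This pairing, added after the data were seen, called 36 guides, 51 genes over all constructs and 2 pairs between irradiated and day 14 cells, and no member. Beside non-targeting guides, leaving out each replicate gave 0 to 21 genes at day 14 against day 0, the highest without day 14 replicate 2. Without irradiated replicate 2 and day 14 replicate 1 together, 3 (irradiated) and 1 (day 14) genes were called there against day 0, 1 gene with both guides against it at day 14, and 215, 1261 and 167 pairs, and leaving out single replicates gave 0 to 1 pairs in each comparison of irradiated cells. With those libraries left out, each of the irradiated and day 14 groups is 1 library, assumed to vary like day 0. Among members, 42 of 510 guide values and 10 of 136 gene values over all constructs took the other sign under an alternative. So did 8 of 136 values beside non-targeting guides and 6 of 120 with both guides against a gene. For the member, listed and smallest-p pairs, 157 of 1598 values did so. Of these, 52 came from the 141 values without those 2 libraries. The causes were not tested. The 95% interval with both guides against a gene reached a median of 1.21, 1.04 and 1.04 on either side without those libraries, against 2.18, 2.18 and 2.19 with all 6.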
